A study of Rattus norvegicus with 12 samples.

Results

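The comparison described here sets the right trigeminal ganglion of rats given a 20% estradiol (E2) capsule against that of rats given a 5% E2 capsule, 6 of the 12 libraries of the series, 3 in each group. The libraries were chosen by their capsule labels alone. All animals were female Sprague Dawley rats that carried a capsule for 1 week. The labels liken 5% E2 to the level of diestrus and 20% E2 to that of proestrus. The other 6 libraries, used for the shared estimate of spread and as reference values, came from vehicle capsules of 100% cholesterol (3) and from 40% E2, described as a therapeutic level (3). The labels do not state whether the ovaries had been removed, nor do they tie each library to an animal, and the p-values below speak only to variation among these libraries, which may be technical.

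Estradiol is the main ovarian estrogen. It acts through nuclear receptors that bind DNA and change transcription, and through membrane receptors that signal quickly. In the rat cycle it is low in diestrus and peaks in proestrus. The trigeminal ganglion contains the neurons that carry touch, temperature and pain from the face and meninges, wrapped by satellite glia, with Schwann cells along their axons, and it is studied for orofacial pain and migraine, which vary with the ovarian cycle. The series asks how E2 alters the serotonin response of these neurons.

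Expression was given as FPKM, the fragments of a gene divided by its model's length and by a denominator for the library's depth. The 6 libraries held 13320156 to 16900117 fragments, recovered from the values, and 18233 to 18836 genes above 0. Their denominators differed from these recovered totals by −0.758% to 1.62%. The test took the 14781 of 32545 genes that reached 1 FPKM in 3 or more of the 12 libraries. The files do not pair their identifiers with gene names, and the reference table matched none of them. Estrogen receptors, serotonin receptors, sensory channels and the markers of neurons, glia or neighbouring tissue were therefore not analysed here, and genes are told apart below by the length of their model in bases. In bulk tissue, fewer cells of a type and less RNA per cell cannot be told apart.

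No gene differed between 20% and 5% E2 at an adjusted p under 0.05. The test was limma on log2(FPKM + 1), two-sided, with Benjamini-Hochberg adjustment over all 14781 genes, and 0.0% were called. The smallest adjusted p was 0.271. At an unadjusted p under 0.05 there were 662 genes (4.48%), of which 368 were higher (2.49%) and 294 lower (1.99%) at 20% E2. A count model (voom in limma, with library weights, run on recovered fragments) also called 0 genes. It put 1300 of the same 14781 genes at an unadjusted p under 0.05, more than the 662 of the main fit. The 3 libraries at 20% E2 lay wholly above the 3 at 5% E2 for 785 genes (5.31%) and wholly below for 825 (5.58%).

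Differences were small against the spread. The median size of the log2 difference was 0.095, the median standard error 0.13, and the median signed difference −0.0011. On the log2(FPKM + 1) scale, the 95% confidence interval of the difference lay within 1 unit either way for 89.4% of genes. It lay within 1.5-fold of FPKM + 1 either way for 75.0%. At low FPKM the same bounds span a larger fold change of FPKM itself. Among the 9939 genes averaging at least 5 FPKM these shares were 96.3% and 89.3%. A difference of at least 1 log2 unit was estimated for 167 genes, 82 higher and 85 lower at 20% E2, and 105 of them had models under 200 bases. The precision followed the level, with a median standard error of 0.261 for genes averaging under 2 FPKM and 0.083 for those at 100 FPKM or more.

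Distances between libraries of the same capsule overlapped those between libraries of different capsules. The root mean square difference over all genes tested, on the log2(FPKM + 1) scale, ran from 0.434 to 0.448 among the 5% E2 libraries, from 0.395 to 0.443 among the 20% E2 libraries and from 0.412 to 0.452 for the 9 pairs across the groups. The median standard deviation of a gene was 0.135 at 5% E2 and 0.125 at 20% E2.

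**Figure D1:**
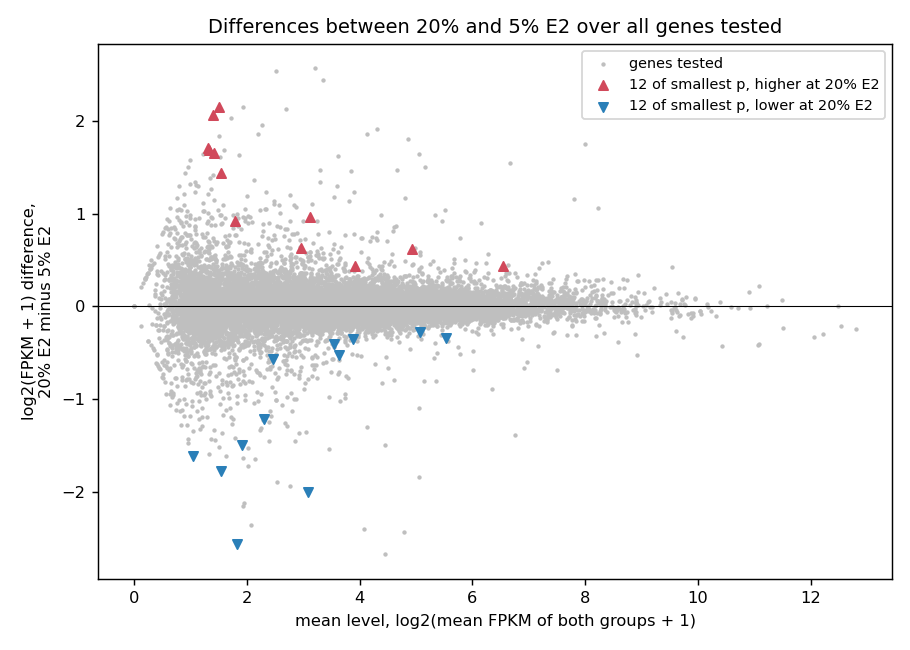
Difference between 20% and 5% E2 (vertical axis, log2(FPKM + 1)) against mean level (horizontal axis, log2 of the mean FPKM of both groups + 1), 1 point per gene tested. Triangles mark the 12 genes of smallest p in each direction with a mean of at least 1 FPKM, none of which passed the adjusted threshold.

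ENSRNOG00000050800, whose model spans 1743 bases, ranked first by p. Its FPKM was 17.3, 8.21 and 12.5 in the 5% E2 libraries (replicates 1 to 3) and 3.90, 1.77 and 1.58 at 20% E2. All 3 libraries at 5% E2 lay above all 3 at 20% E2, and the recovered fragments were 1032 against 182. On the log2 scale the difference came to −2.01 ± 0.29 (SE; limma adjusted p = 0.271). Vehicle averaged 2.97 ± 0.882 FPKM and 40% E2 averaged 1.45 ± 0.261 (SD, n = 3 each), so that 5% E2 stood above the other 3 groups.

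The 12 genes of smallest p in each direction, none of them called, were of 2 kinds. Of the 12 higher at 20% E2, 5 had models under 200 bases, and 5 of the 12 lower ones did too. Such genes turned on very few fragments. One with a 71-base model had 4.60, 3.48 and 7.22 FPKM at 5% E2 and was listed at 0 in all 3 libraries at 20% E2, which stood for 17 fragments against 0. One with a 102-base model was listed at 0 at 5% E2 and had 2.17, 4.22 and 3.44 FPKM at 20% E2, or 0 fragments against 15. Outside 20% E2 it reached 1 FPKM only in vehicle replicate 1 (1.13) and 40% E2 replicate 2 (2.13). It thus passed the filter only through the group where it was high, as did the leading genes of 60 and 113 bases. These genes carry no weight as support. In all 24 genes the groups did not overlap, a property that selection by p favours.

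Among the longer models higher at 20% E2, differences were mostly under 1 log2 unit. A gene of 555 bases had 4.95, 5.78 and 4.74 FPKM at 5% E2 and 9.45, 8.28 and 7.80 at 20% E2, a log2 difference of 0.63 ± 0.12 (limma adjusted p = 0.568). It averaged 5.98 ± 0.747 FPKM in vehicle and 8.84 ± 0.983 at 40% E2 (SD, n = 3 each), so the lower levels were those of vehicle and 5% E2. A gene of 699 bases had 25.9, 23.4 and 20.3 FPKM at 5% E2 against 33.3, 38.1 and 36.5 at 20% E2 (0.62 ± 0.13). Vehicle lay between these groups, at 30.5 ± 1.8 FPKM. The best counted of the higher genes after it, of 219 bases, had 85.4, 69.9 and 80.2 FPKM against 97.2, 112 and 109, a log2 difference of 0.43 ± 0.097. A gene of 253 bases averaged 4.92 ± 1.46 FPKM at 5% E2 and 10.5 ± 2.49 at 20% E2 (SD, n = 3 each), on 59 and 121 fragments.

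Among the longer models lower at 20% E2, several were well counted and tightly grouped, the second a trait that selection by p favours. A gene of 763 bases had 14.5, 14.2 and 12.4 FPKM at 5% E2 and 10.3, 8.84 and 8.59 at 20% E2 (log2 difference −0.53 ± 0.099, limma adjusted p = 0.568). A gene of 2610 bases had 5.71, 5.70 and 5.26 FPKM against 2.83, 3.57 and 3.88, with 683 fragments against 403. Its vehicle level, 3.50 ± 0.241 FPKM (SD, n = 3), was that of the 20% E2 group, while 40% E2 averaged 4.79 ± 0.916, nearer to 5% E2. A gene of 2248 bases had the smallest difference of the 12, −0.27 ± 0.067, from 36.2, 34.2 and 36.4 FPKM at 5% E2 to 29.7, 28.6 and 29.5 at 20% E2. A gene of 1591 bases averaged 12.4 ± 0.106 FPKM at 5% E2 and 9.10 ± 0.391 at 20% E2 (SD, n = 3 each), and its vehicle and 40% E2 means lay between them at 11.5 and 10.9 FPKM.

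**Figure D2:**
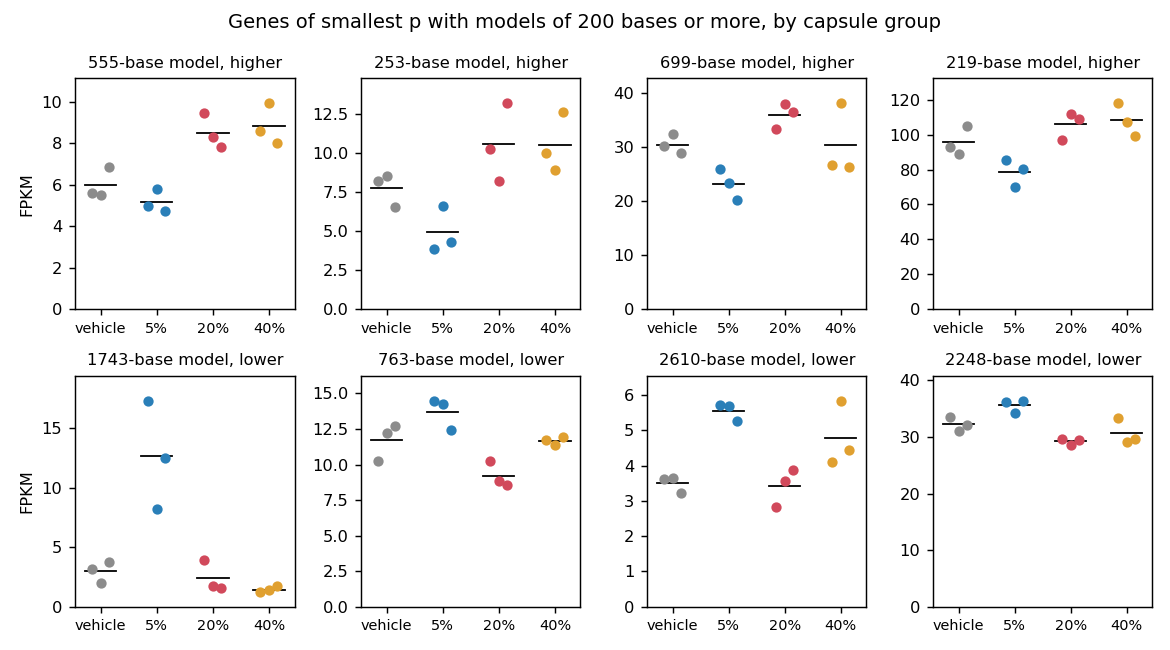
FPKM by capsule group (horizontal axis) for the 4 genes of smallest p in each direction with models of at least 200 bases. Points are libraries and lines are group means. The 3 libraries at 20% E2 lie on one side of the 3 at 5% E2 in every panel, and no gene passed the adjusted threshold.

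The vehicle level of the leading genes did not lie on one side. It was nearer to the 20% than to the 5% E2 mean for 5 of the 12 higher and 6 of the 12 lower genes. The higher genes of 60, 102 and 113 bases passed the filter only through 20% E2, which favours low levels in the other groups. Over all genes tested the shares were 48.0% of those higher and 51.6% of those lower at 20% E2. The 40% E2 level was nearer to the 20% E2 mean for 7 of 12 genes in each direction, against 55.5% and 55.8% over all genes.

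Calls appeared when single libraries were left out. Without 5% E2 replicate 2, 5 genes passed (0.0338%), 2 higher and 3 lower at 20% E2, and 587 genes had an unadjusted p under 0.05 (3.97%). Without 20% E2 replicate 1 there were 2, both lower: ENSRNOG00000050800 and a gene with a 71-base model, other than the one above, counted in 16 fragments at 5% E2 and 4 at 20% E2, all 4 in the library left out. Without 20% E2 replicate 3 there was 1, a gene with a 216-base model at 16.6, 11.1 and 14.2 FPKM at 5% E2 and 1.37, 2.99 and 13.3 at 20% E2. Leaving out 5% E2 replicate 1, 5% E2 replicate 3 or 20% E2 replicate 2 gave 0 calls, with 949, 480 and 460 genes at an unadjusted p under 0.05. Of the 662 genes with all libraries, 362 were among the 587 without 5% E2 replicate 2. These fits, like the main one, pool the spread over all groups, and an arm of 2 libraries adds less of its own.

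Without 5% E2 replicate 2, ENSRNOG00000049598, a gene of 1593 bases, rose at 20% E2. It had 3.41 and 2.86 FPKM in 5% E2 replicates 1 and 3 but 22.7 in replicate 2, against 29.9, 37.0 and 17.1 at 20% E2. Vehicle held 30.2, 26.9 and 39.7 FPKM and 40% E2 held 25.0, 18.2 and 16.0. The libraries that stood apart from the other 10 were thus 5% E2 replicates 1 and 3, and replicate 2 was among the levels of the other capsules. The log2 difference was 2.75 ± 0.30 without replicate 2 (limma adjusted p = 0.0294) and 1.91 with it (adjusted p = 0.975).

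ENSRNOG00000007407, of 917 bases, fell at 20% E2 in the same fit, with the same libraries apart. Its FPKM was 41.1 and 28.3 in 5% E2 replicates 1 and 3, 6.39 in replicate 2, and 5.48, 8.77 and 8.74 at 20% E2. Vehicle ran from 7.76 to 11.8 and 40% E2 from 8.94 to 13.0. The log2 difference was −2.04 ± 0.25 without replicate 2 (limma adjusted p = 0.0294) and −1.30 with it (adjusted p = 0.975). A gene of 1399 bases fell as well: 8.41 and 18.0 FPKM in replicates 1 and 3 stood against 0.265 in replicate 2 and 0.528, 0.718 and 0.669 at 20% E2. Its log2 difference was −3.03 ± 0.39 without replicate 2 and −1.90 with it (limma adjusted p = 0.0294 and 0.975).

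In the other 2 calls, the groups did not overlap when replicate 2 was included. ENSRNOG00000050800 fell, with a log2 difference of −2.26 ± 0.29 without that library (limma adjusted p = 0.0294). ENSRNOG00000053589 rose, but its 60-base model held 8 fragments at 20% E2 and 1 at 5% E2, and it was listed at 0 in all vehicle and 40% E2 libraries. It reached 1 FPKM only at 20% E2 and in 5% E2 replicate 2. The gene thus passed the filter only through the group where it was high, and its call carries no weight as support. Under other settings with replicate 2 left out, the number of calls was between 0, with the compared groups fitted alone, and 9, with no filter on low values.

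**Figure D3:**
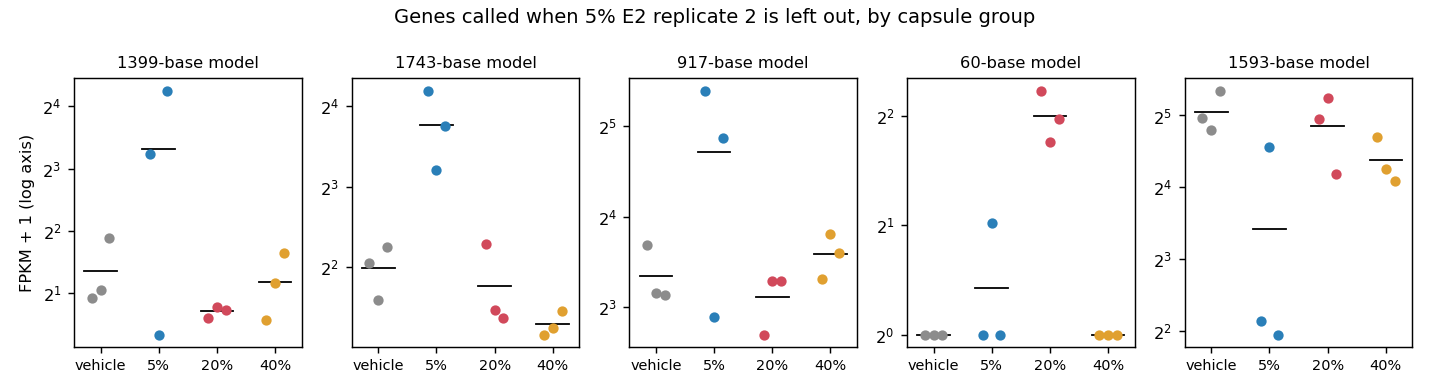
FPKM + 1 (vertical axis, log scale) by capsule group for the 5 genes called when 5% E2 replicate 2 was left out. Points are libraries, left to right replicates 1 to 3, and lines are means of FPKM + 1. In the panels for the models of 1399, 917 and 1593 bases the middle point at 5% E2 lies near the other capsules while its replicates stand apart.

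5% E2 replicate 2 also held more high genes than the other 5 libraries compared. Counting genes with models of at least 200 bases that exceeded each of the other 5 libraries by at least 1 log2 unit, there were 28 in 5% E2 replicate 2, 9 in each of 5% E2 replicates 1 and 3, and 11, 6 and 7 in 20% E2 replicates 1 to 3. The 28 summed to 388 FPKM in that library, to 63.4 and 67.4 in its replicates, and to 102, 75.8 and 93.3 at 20% E2. Set against all 12 libraries by the same margin, 19 genes stood out in 5% E2 replicate 2 and 0 to 4 in each of the others. The highest sum of the 28 in the remaining libraries was 127, in 40% E2 replicate 3. A gene of 3012 bases had 34.1 FPKM in 5% E2 replicate 2 and 1.32 to 3.94 in the other 11 libraries, and one of 882 bases had 27.4 against 0.329 to 3.52. Others were not limited to it: a gene of 657 bases had 6.48 FPKM there, 7.14 in vehicle replicate 2 and 18.9 in 40% E2 replicate 2. By the choice of these genes all 28 were lower at 20% E2, with a median log2 difference of −0.37. Without the library 22 were higher and 6 lower, with a median of 0.23. What these genes are, and whether they mark another tissue, was not tested.

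The most abundant genes gave a further pattern across libraries. The 30 genes of highest mean level took 11.1% to 11.9% of fragments in the 6 libraries, and 6 of them were at an unadjusted p under 0.05, against 4.48% of all genes tested. In 10 of the 30, 5% E2 replicates 2 and 3 both lay above 5% E2 replicate 1 and all 20% E2 libraries, an order seen in 9.58% of all genes tested. These 10, picked after their values were seen, held all 6 of the genes at an unadjusted p under 0.05, and the other 20 held 0. Picking genes by that order favours a small p, a negative difference and a high share in 5% E2 replicates 2 and 3. The split is thus no separate result. They took 3.50%, 4.42% and 4.22% of fragments at 5% E2 (replicates 1 to 3) and 3.43%, 3.43% and 3.44% at 20% E2. Vehicle ranged from 3.60% to 3.85% and 40% E2 from 3.54% to 3.92%. Their log2 differences ran from −0.43 to −0.07, and those of the other 20 genes from −0.11 to 0.22.

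**Figure D4:**
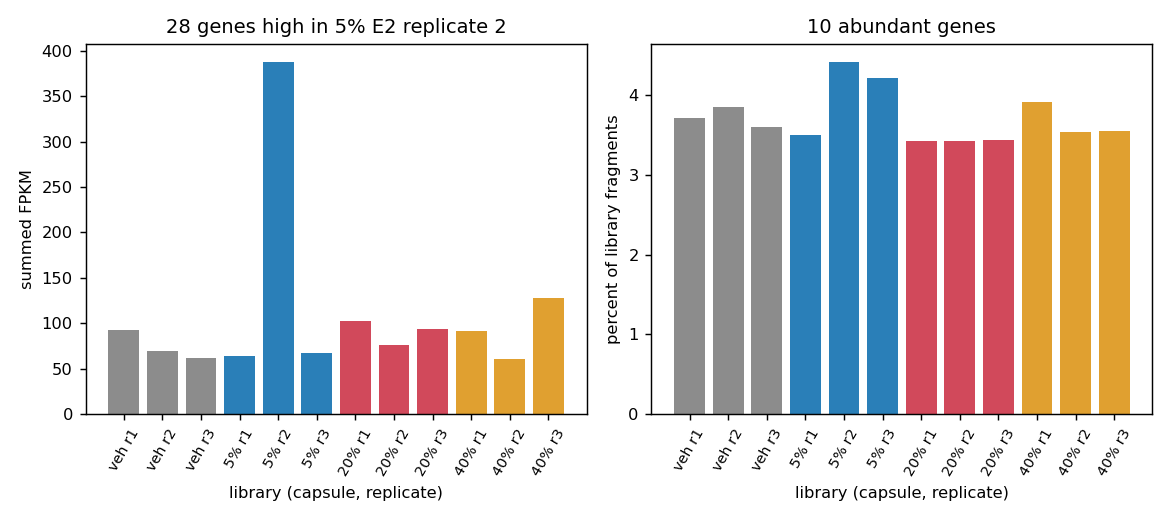
Left, summed FPKM of the 28 genes high in 5% E2 replicate 2. Right, share of each library's fragments (percent) in the 10 abundant genes; bars are single libraries (r1 to r3 are replicates). The left sum is 388 in 5% E2 replicate 2 and at most 127 elsewhere, and the right share is highest in 5% E2 replicates 2 and 3. Both sets of genes were picked for being high in those libraries among the libraries compared.

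Above 500 bases, the direction of the differences moved with model length. Among genes of 500 to 1000 bases, 67 were higher and 27 lower at an unadjusted p under 0.05, of 1283 tested (all genes: 2.49% higher and 1.99% lower), and the median log2 difference was 0.06. Among genes of at least 5000 bases, 8 were higher and 21 lower, of 1478, and the median was −0.03. Leaving out each of the 6 libraries in turn kept both signs, with medians of 0.03 to 0.08 for the first class and −0.05 to −0.01 for the second. The shortest models, under 200 bases, did not follow this order, with 40 higher and 36 lower of 810 and a median of 0.0020. The share at an unadjusted p under 0.05 was 9.38% for models under 200 bases and 1.96% for those of at least 5000.

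Seen by library, this tilt did not separate the groups. The median deviation of genes of 500 to 1000 bases from their 12-library mean, minus that of genes of at least 5000 bases, was 0.03, −0.08 and −0.16 in 5% E2 replicates 1 to 3 and −0.01, 0.07 and −0.02 at 20% E2 on the log2 scale. 5% E2 replicate 1 lay among the 20% E2 libraries, and vehicle libraries ranged from −0.07 to 0.21. The leading higher genes had models of 60 to 770 bases and the leading lower ones 71 to 2610. The part of length in their differences was not tested.

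**Figure D5:**
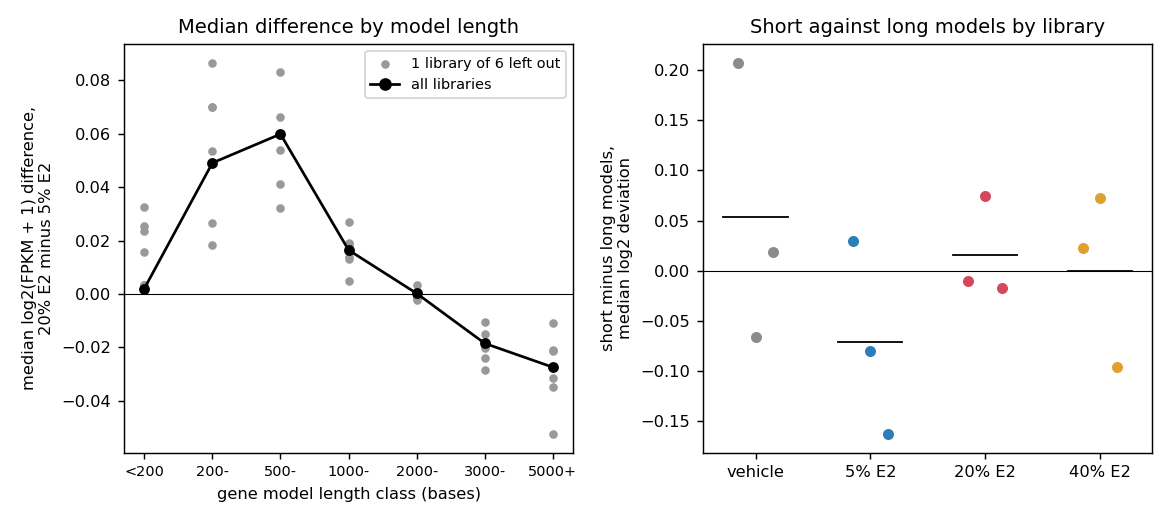
Left, median log2(FPKM + 1) difference between 20% and 5% E2 by model length class (lower bound in bases), with all libraries (black) and with each of the 6 libraries left out (grey). Right, median deviation of 500 to 1000-base models minus that of models of at least 5000 bases, by library (points) and group mean (lines); the 5% and 20% E2 libraries overlap.

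Detection without fragments in the opposite group was rare. Of genes with at least 3 fragments in all 3 libraries of one group, 2 had none in the 3 libraries at 20% E2 and 5 had none in those at 5% E2, while 15242 genes had at least 3 fragments in all 6. The largest count among the 7 was 39 fragments against 0, for a gene of 2027 bases with 1.09, 0.177 and 0.115 FPKM at 20% E2. That gene was also found in the vehicle and 40% E2 groups, at 0.258 and 0.624 FPKM on average, and it was below the level needed for testing.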

How the data were processed

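RNA-seq of right trigeminal ganglia gave 12 libraries, 3 for each of 4 capsule groups taken from the labels. The authors deposited FPKM values per gene and library. Tools listed, per the submitters' processing notes, are HISAT2, featureCounts, fastp, CASAVA and DESeq2, with no version or role. The genome build, annotation and strand setting are not given in those sources. A table of the whole series with a misaligned header was not used. Whole fragments and model lengths were recovered from the FPKM values (21071 of 21071 genes above 0 in at least 2 libraries, tolerance 0.0002). The smallest whole length that fitted was taken, so a gene's length and fragments are known only up to a common factor. Counts cover counting error only. Replicates at 5% E2 and replicates at 20% E2 differed beyond sampling noise in every pair (chi-square divided by its degrees of freedom, 6.95 or more).

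Genes reaching 1 FPKM in 3 or more of 12 libraries were fitted on log2(FPKM + 1), a scale that understates changes of low genes, with limma 3.58.1 (R 4.3.3), trend and robust moderation, 4 group means and 12 libraries. P-values were adjusted over all genes tested. The scripts were tested on simulated data. The comparison and gene lists were chosen with earlier results of these data known. Genes named were those called, the 12 of smallest p in each direction with a mean of at least 1 FPKM, and those called without 5% E2 replicate 2. The rule asked for a gene symbol for the second kind, which could not be applied; other genes were singled out after their values were seen. The single genes and 32 lists planned need names, and 0 of 32545 identifiers matched the 47357 genes of GRCr8, so they were not analysed here. Alternatives changed the pseudocount, filter, scaling, weights, count model, moderation, block and libraries.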

Additional observations from a re-analysis of the deposited data

How the results depend on the processing

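The count of 0 genes called held under every planned setting except those that leave out a library of the compared groups, where it ran from 0 to 5. In settings chosen after seeing the data, 5% E2 replicate 2 left out gave 1 call with log2(FPKM + 0.1), 2 with a filter of 5 FPKM in 3 or more libraries, 9 with no filter, 3 with voom and sample quality weights, 4 with models of at least 200 bases and 30 fragments on average, and 0 with the compared groups alone. Those 9 held 3 of the 5 genes called under the standard filter, and the 3 of voom held 2. The number at an unadjusted p under 0.05 (662 of 14781 genes tested) became 1010 of 22821 with no filter, where more genes were tested. Of the same 14781 genes it became 1127 with sample quality weights, 1300 with voom, and 460 to 949 with a library left out. Why it moved among the same genes was not tested. The replicate block gave 0 calls and 660 genes at an unadjusted p under 0.05. The labels do not say whether a replicate number marks a shared animal, litter or day. Deviations of same-numbered libraries correlated at −0.054 to 0.0020, other pairs at −0.041 to 0.056, and 1 of 3 numbers matched itself best. These values showed no pairing by number but cannot decide whether the libraries were paired. All 24 leading genes kept an unadjusted p under 0.05 in each alternative that tested them, 16 or 18 per gene. They were picked by small p and the alternatives reuse the same libraries, so this outcome was favoured in advance. Those of 60, 102 and 113 bases also passed the filter only through 20% E2, where they were high. Among named genes, 455 values kept their direction and side of the threshold and 6 passed it only under an alternative. Settings planned for the single genes and lists gave no value. Depth limits short models most, where 1 or 2 fragments can move a gene past 1 FPKM.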
